A study of Homo sapiens with 60 samples.

Results

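The 10 genes CDKN1A, MDM2, BBC3, FAS, RRM2B, BTG2, TP53INP1, PHLDA3, ZMAT3 and FDXR, all textbook transcriptional targets of the tumour suppressor p53, were taken by symbol from the 60675 genes of the count table and followed through every extract and dose, in 58 of the 60 libraries. Each symbol matched 1 gene, and all 10 passed the filter on low counts. The question was whether CDKN1A, a gene that several pathways besides p53 can switch on, moved together with the other p53 targets or on its own.

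p53 is a transcription factor that is kept scarce in resting cells because MDM2, the product of one of its own targets, marks it for destruction. When DNA damage or other stress interrupts that loop, p53 accumulates, binds paired copies of a short consensus and raises genes that stop the cell cycle (CDKN1A, BTG2), close the feedback loop (MDM2), favour cell death (BBC3, FAS, TP53INP1, PHLDA3) or serve repair, metabolism and RNA control (RRM2B, FDXR, ZMAT3). CDKN1A can also respond to other factors, among them those of the integrated stress response.

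The cells were SW1783, an established human astrocytoma line grown in L-15 medium. Treated cells received an extract made with 70% ethanol, and all groups were harvested after 24 h. Coptidis Rhizoma was given at a low, medium and high dose of 0.56, 2.8 and 14 µg/mL, Bupleuri Radix at 8.4, 42 and 210 µg/mL, and each of the others at 20, 100 and 500 µg/mL. These others were the herbs Aconiti Lateralis Radix Preparata, Cimicifugae Rhizoma, Zizyphi Fructus and Citri Unshius Pericarpium, and the mixtures Banhasasim-tang and Yijung-tang. The high dose was the concentration that cut viability by 20% where that lay under 500 µg/mL, and doses of different extracts are therefore not matched by weight. The vehicle was DMSO, given as 0.1% in the sample labels and as 2% in the series text. Below, herbs are called by the first word of their names. Each dose had 3 libraries for Bupleuri, Cimicifugae, Citri and Aconiti, 2 for Yijung-tang, Zizyphi and Coptidis, and 1 for Banhasasim-tang, and the vehicle had 3. The labels do not say that replicates came from separate cultures, so p-values measure the spread between these libraries, which may be technical.

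Extract libraries held 17434951 to 30990264 counts and vehicle libraries 15996157 to 20858002. High-dose Aconiti replicate 1 and low-dose Yijung-tang replicate 1 stood apart from the rest (11329310 and 15421648 counts) and were left out, which left low-dose Yijung-tang with 1 library and no test. The vehicle libraries carry no set number while extracts share one in pairs (Coptidis with Zizyphi, Citri with Cimicifugae, Bupleuri with Aconiti), so set and treatment cannot be told apart in comparisons with the vehicle, and doses within an extract were compared as well. Of 7 astrocyte markers only GJA1 and SLC1A3 exceeded 1 CPM (the count scaled to TMM library size) in all vehicle libraries, and GFAP averaged 0.0415 CPM there. The 7 astrocyte markers summed to 317 to 331 CPM in high-dose Bupleuri and 243 to 263 CPM in high-dose Coptidis. In the vehicle they summed to 271 to 279 CPM. In bulk RNA, fewer cells of a kind and less RNA per cell cannot be told apart. The 5 epithelial markers, KRT18 the most abundant among them, summed to 60.9 to 64.3 CPM in high-dose Bupleuri and 167 to 169 CPM in high-dose Coptidis, against 256 to 265 CPM in the vehicle. The sum of 6 neuron markers was 122 to 128 CPM in high-dose Bupleuri and 109 to 115 CPM in high-dose Coptidis, against 175 to 177 CPM in the vehicle, and that of 5 endothelial markers 36.5 to 38.6 CPM in Bupleuri and 35.5 to 37.8 CPM in Coptidis, against 26.4 to 28.9 CPM in the vehicle. For 5 oligodendrocyte markers it was 8.19 to 8.7 CPM in Bupleuri and 11.7 to 13.9 CPM in Coptidis, against 5.35 to 6.91 CPM in the vehicle, with 2 of the 5 at 0 in all Coptidis and all vehicle libraries. For 6 microglia and leukocyte markers it was 33.2 to 33.9 CPM in Bupleuri and 46.4 to 47.6 CPM in Coptidis, against 41.8 to 45.2 CPM in the vehicle. The part of these markers in the results of the 2 groups was not tested.

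The bases around the transcription start are shown for the 4 genes that rose together in one group. They come from RefSeq on GRCh38.p14, whose table held 7 of the 10 genes, and each runs from 250 bases before to 50 bases after a start, 5′ to 3′ on the gene's strand, with motif matches in capitals. Given are CDKN1A (chr6:36678464-36678763, + strand), an inner start of MDM2 (chr12:68808767-68809066, + strand), BBC3 (chr19:47232618-47232917, - strand) and the FAS start with a p53 match (chr10:88991181-88991480, + strand).
CDKN1A: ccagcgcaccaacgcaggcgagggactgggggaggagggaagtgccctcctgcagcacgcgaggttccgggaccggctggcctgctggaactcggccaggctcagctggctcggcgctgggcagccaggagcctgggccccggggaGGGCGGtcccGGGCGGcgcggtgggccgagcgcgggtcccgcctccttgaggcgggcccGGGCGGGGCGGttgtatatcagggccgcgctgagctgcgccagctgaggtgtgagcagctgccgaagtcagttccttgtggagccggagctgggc
MDM2: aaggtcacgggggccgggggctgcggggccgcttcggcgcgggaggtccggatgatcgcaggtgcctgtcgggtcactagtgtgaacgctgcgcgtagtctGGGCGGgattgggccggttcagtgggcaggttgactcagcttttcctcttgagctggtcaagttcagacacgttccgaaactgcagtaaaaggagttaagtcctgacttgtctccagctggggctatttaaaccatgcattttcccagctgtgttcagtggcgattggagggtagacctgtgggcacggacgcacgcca
BBC3: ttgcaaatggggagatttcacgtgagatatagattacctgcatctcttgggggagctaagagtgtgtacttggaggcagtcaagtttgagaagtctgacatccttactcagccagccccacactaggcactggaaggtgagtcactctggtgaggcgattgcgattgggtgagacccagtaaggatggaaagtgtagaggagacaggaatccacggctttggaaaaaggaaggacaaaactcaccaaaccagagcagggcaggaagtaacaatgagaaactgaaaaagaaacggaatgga
FAS: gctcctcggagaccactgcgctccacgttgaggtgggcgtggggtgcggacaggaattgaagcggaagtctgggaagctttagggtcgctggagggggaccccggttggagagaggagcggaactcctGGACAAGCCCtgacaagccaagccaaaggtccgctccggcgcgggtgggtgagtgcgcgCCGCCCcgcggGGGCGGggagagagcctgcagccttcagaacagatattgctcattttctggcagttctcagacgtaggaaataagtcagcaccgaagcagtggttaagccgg
The letters searched on both strands were GGGCGG (the GC box of SP1-family factors), TATAAA, TGATGNAA (the composite element of ATF4 with C/EBP partners) and the p53 decamer consensus by its name. CDKN1A held 4 GC boxes, starting 104, 94, 45 and 40 bases before the start, and GC boxes occurred in 44.95% of the 35116 promoters of the table. A p53 decamer was found at 1 of 3 FAS starts (GGACAAGCCC, 122 bases before it) and at 1 of 2 FDXR starts (GGGCTTGCCC, 11 bases before it), against 6.63% of all promoters. TGATGNAA and TATAAA were found at none of the 14 starts searched for the 7 genes, against 3.62% and 11.53% of all promoters. Natural p53 sites often depart from the consensus or lie outside such windows, so a missing match says only that these letters were absent.

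CDKN1A rose at the high dose of all 7 extracts with replicates, and no other gene of the 10 did. Its log2 fold change over the vehicle was 1.31 for Coptidis, 0.90 for Bupleuri, 0.81 for Cimicifugae, 0.64 for Yijung-tang, 0.62 for Aconiti, 0.44 for Citri and 0.25 for Zizyphi. All 7 comparisons share the 3 vehicle libraries, and how many of all genes rose in all 7 was not counted. Of the 17680 genes tested, 770 (Bupleuri) to 3268 (Zizyphi) had a larger log2 fold change than CDKN1A. High-dose Coptidis was the group in which CDKN1A rose together with MDM2, BBC3 and FAS. In the other 6 extracts neither MDM2 nor FAS rose at the high dose, BBC3 rose in Cimicifugae and Yijung-tang, and ZMAT3 fell in Citri, Cimicifugae, Bupleuri and Yijung-tang as it did in Coptidis. A gene is said to have risen or fallen where its adjusted p was under 0.05 in edgeR's quasi-likelihood test over 17680 genes, with Benjamini-Hochberg adjustment.

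**Figure D1:**
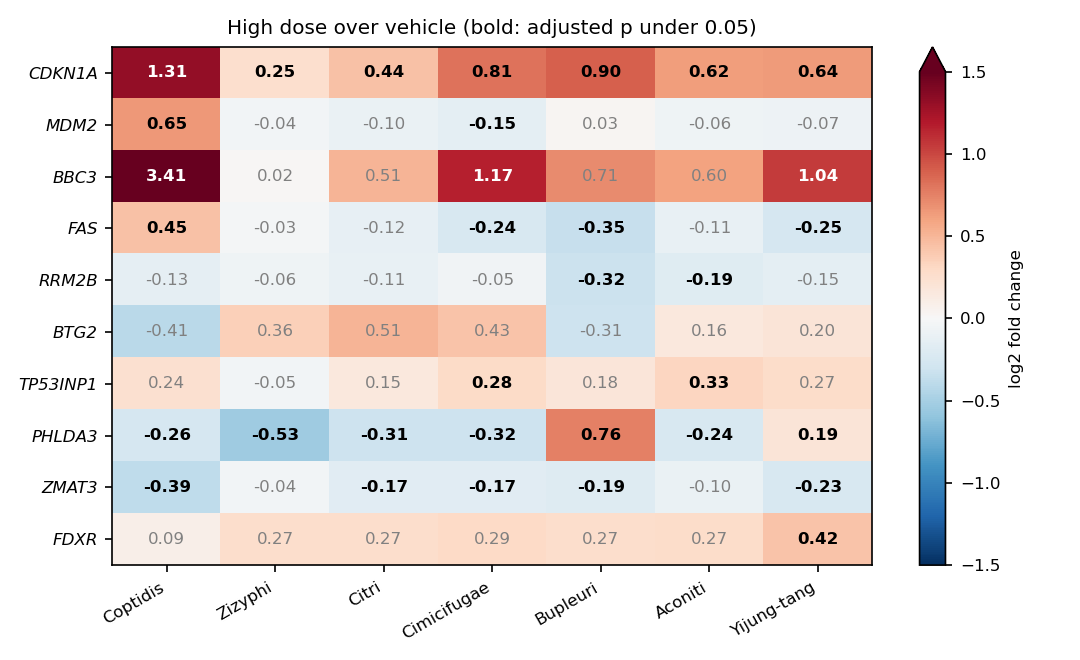
Log2 fold change of each of the 10 genes (rows) at the high dose over the vehicle in 7 extracts (columns), with the colour scale limited to 1.5 in either direction and bold for an adjusted p under 0.05. The CDKN1A row is bold throughout, between 0.25 in Zizyphi and 1.31 in Coptidis, while MDM2 and FAS reach 0.65 and 0.45 in Coptidis and lie near or below 0 elsewhere.

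For high-dose Coptidis 6 of the 10 genes passed (4 higher, 2 lower), where 66.6% of all genes tested did. Cimicifugae had 7 (3 higher, 4 lower) against 35.7% of all genes, Yijung-tang 6 (4 higher, 2 lower) against 30.8%, and Bupleuri 5 (2 higher, 3 lower) against 39.6%. Aconiti had 4 (2 higher, 2 lower) against 27.6%, Citri 3 (1 higher, 2 lower) against 31.5%, and Zizyphi 2 (1 higher, 1 lower) against 21.6%. For a set of 10 genes the shares in Coptidis, Citri, Zizyphi, Bupleuri and Aconiti are near the background. The Yijung-tang count was 2 without high-dose replicate 2, the Aconiti count 2 without vehicle replicate 1 or either high-dose library, and the Zizyphi count 1 without vehicle replicate 3 or high-dose replicate 2. Of the higher genes, 1 was left in Cimicifugae without high-dose replicate 1, 2 in Yijung-tang without vehicle replicate 3 or high-dose replicate 1, and 1 in Aconiti without vehicle replicate 3. Of the lower genes, 1 was left without vehicle replicate 2 in Citri and in Aconiti. All groups share an estimate of the spread in the fit, so the left-out libraries, when kept, also enter the p-values of extracts without them. With both left-out libraries kept, 9 of the 33 calls at the high dose were left, those of CDKN1A in 6 extracts, MDM2 and BBC3 in Coptidis and PHLDA3 in Bupleuri. The counts were then 3 in Coptidis, 2 in Bupleuri, 1 each in Citri, Cimicifugae and Yijung-tang, and none in Zizyphi, and in Aconiti CDKN1A passed together with MDM2 (log2 -0.34) and FDXR (log2 0.65). The median log2 fold change of the 10 genes lay between -0.03 in Zizyphi and 0.19 in Yijung-tang, and that of all genes between -0.02 and 0.01. In every extract CDKN1A was among the 3 of the 10 with the largest fold change.

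As many or fewer of the 10 genes passed at the medium as at the high dose of each extract. At the medium dose the counts were 2 in Coptidis against 25.9% of all genes, 2 in Zizyphi against 13.7%, 2 in Citri against 17.9%, 5 in Cimicifugae against 31.8%, 5 in Bupleuri against 22.7%, 4 in Aconiti against 26.2% and 2 in Yijung-tang against 15.3%. At the low dose they were 1 in Coptidis against 7.32%, 3 in Citri against 16.1%, 4 in Cimicifugae against 20.8%, 4 in Bupleuri against 26.9% and 3 in Aconiti against 20.0%. In low-dose Zizyphi edgeR called 0 of the 10 where 11.8% of all genes passed, 1 had an unadjusted p under 0.05, and DESeq2 called 0 of the 8 with an adjusted p. Medium-dose Zizyphi was left with no call without its replicate 3 and 1 without its replicate 2 or vehicle replicate 2 or 3. Medium-dose Yijung-tang was left with none without its replicate 2 or vehicle replicate 2 and 1 without vehicle replicate 3. Without vehicle replicate 2 or its own replicate 2, medium-dose Citri had 1 call and medium-dose Bupleuri 3. Low-dose Coptidis had none without any 1 of the 5 libraries, low-dose Cimicifugae 2 without vehicle replicate 1 or 2, and low-dose Zizyphi 1 without vehicle replicate 1. When both left-out libraries were kept, 2 calls were left at the medium doses (CDKN1A in Cimicifugae, BBC3 in Coptidis) and 1 at the low doses (CDKN1A in Cimicifugae).

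CDKN1A encodes p21, the inhibitor of cyclin-dependent kinases through which p53 arrests the cell cycle. On the opposite strand the noncoding gene DINOL, absent from the count table, shares exonic positions with it. Strand use in the counting is not given, so the counts of CDKN1A are uncertain to that extent. CDKN1A measured 51.02 and 53.1 CPM in the high-dose Coptidis libraries, against 23.7, 20.6 and 18.5 CPM in the vehicle libraries. The high-dose Bupleuri libraries held 40.3, 38.8 and 38.3 CPM and the high-dose Cimicifugae libraries 35.5, 36.6 and 38.3 CPM. All 8 of these libraries lay above every vehicle library, with Coptidis the highest. Aconiti gave 31.8 and 32.8 CPM at the high dose, Yijung-tang 33.02 and 32.4 CPM, and Citri 26.2, 27.1 and 31.8 CPM. Zizyphi gave 25.1 and 24.6 CPM, close to the vehicle libraries but above the highest of them. The fold was 2.48 in Coptidis (log2 1.31 ± 0.07 SE, adjusted p 7.11e-22) and 1.19 in Zizyphi (log2 0.25 ± 0.07 SE, adjusted p 0.00919). The Zizyphi call was lost without vehicle replicate 3 (log2 0.18, adjusted p 0.0879), without high-dose Zizyphi replicate 2 (log2 0.22, adjusted p 0.0954) and with both left-out libraries kept (log2 0.25, adjusted p 0.461).

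The dose course of CDKN1A took different shapes. In Coptidis, against a vehicle level of 20.9 ± 2.64 CPM (SD, n = 3), it held 21.7 ± 0.975 CPM at the low dose, 20.7 ± 1.83 CPM at the medium dose and 52.1 ± 1.47 CPM at the high dose (n = 2 each), so that its rise lay wholly at the top step. In Cimicifugae it was already higher at the low dose, with 29.5 ± 0.911, 33.1 ± 1.004 and 36.8 ± 1.38 CPM at the low, medium and high dose (SD, n = 3 each). Bupleuri gave 25.2 ± 1.11, 26.8 ± 1.13 and 39.1 ± 1.03 CPM over the same steps. Against the vehicle CDKN1A was higher at 5 of 7 medium doses and 4 of 6 low doses, the exceptions being Coptidis and Zizyphi at both. The medium-dose Yijung-tang call (log2 0.23, adjusted p 0.0176) was lost without vehicle replicate 2 or 3 or its own replicate 2 (log2 0.16 to 0.22), and the low-dose Aconiti call (log2 0.23, adjusted p 0.00862) without vehicle replicate 3 (log2 0.16, adjusted p 0.0845). In the order of the group means, high-dose Coptidis stood first, with no overlap with the next group, and the ranges of high-dose Bupleuri and high-dose Cimicifugae almost touched. Medium-dose Cimicifugae, high-dose Yijung-tang and high-dose Aconiti followed with overlapping libraries, at 33.1, 32.7 and 32.3 CPM. Medium-dose Coptidis and the vehicle had the lowest means, and the vehicle range overlapped those of medium and low Coptidis and medium and low Zizyphi. The single Banhasasim-tang libraries had 20.8, 20.4 and 34.1 CPM at the low, medium and high dose, with no test, and the single low-dose Yijung-tang library had 25.1 CPM.

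**Figure D2:**
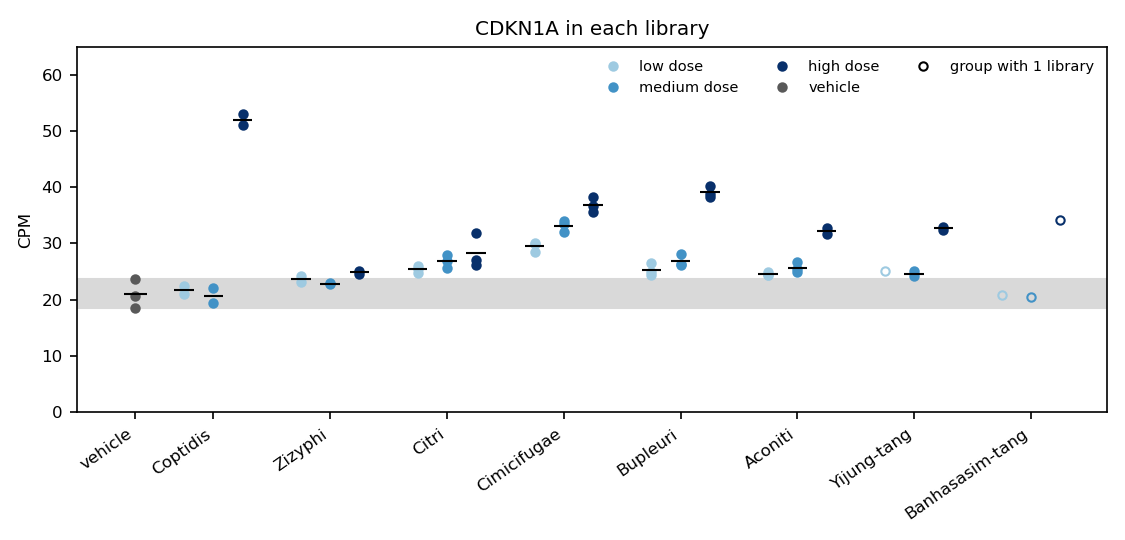
CDKN1A in CPM in each library of the vehicle and of each extract at the low, medium and high dose, with lines at group means, the vehicle range shaded and open circles for groups of 1 library. High-dose Coptidis stands at 52.1 CPM with its lower doses inside the vehicle band, while Cimicifugae has 29.5, 33.1 and 36.8 CPM over its doses, all above the band.

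Between doses of one extract, where both groups share a set, CDKN1A was higher at the high than at the low dose by log2 1.26 ± 0.07 in Coptidis, 0.63 ± 0.06 in Bupleuri, 0.39 ± 0.06 in Aconiti, 0.32 ± 0.06 in Cimicifugae and 0.17 ± 0.06 in Citri (SE), and higher at the high than at the medium dose of Yijung-tang by 0.41 ± 0.07. The difference in Zizyphi, log2 0.07 ± 0.07, did not pass (adjusted p 0.646). The Citri call was marginal (adjusted p 0.0491). It was lost without any 1 of the low-dose libraries (log2 0.15 to 0.18, adjusted p 0.0696 to 0.149) or without high-dose replicate 3, the highest Citri library (log2 0.07, adjusted p 0.526). In a fit that kept both left-out libraries, the Citri, Cimicifugae and Yijung-tang differences kept their size (log2 0.16, 0.32 and 0.41) and did not pass (adjusted p 0.881, 0.31 and 0.334).

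Of the 10 genes 5 passed between the doses of Coptidis (4 higher, 1 lower), where 65.6% of all genes did, and 5 in Bupleuri (4 higher, 1 lower), against 39.2%. Cimicifugae had 3 (1 higher, 2 lower) against 10.7%, Citri 2 against 13.8%, Aconiti 2 against 9.53%, Yijung-tang 2 against 9.16%, and Zizyphi 1 against 7.40%. In Citri and Aconiti these were CDKN1A, higher, and PHLDA3, lower, in Yijung-tang CDKN1A and BBC3, both higher, and in Zizyphi PHLDA3, lower. In Citri 1 call was left without any 1 of the low-dose libraries or high-dose replicate 3, and in Yijung-tang 1 without any 1 of its libraries. With both left-out libraries kept, 6 of the 20 calls were left (CDKN1A, MDM2 and BBC3 in Coptidis, CDKN1A and PHLDA3 in Bupleuri, and CDKN1A in Aconiti).

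**Figure D3:**
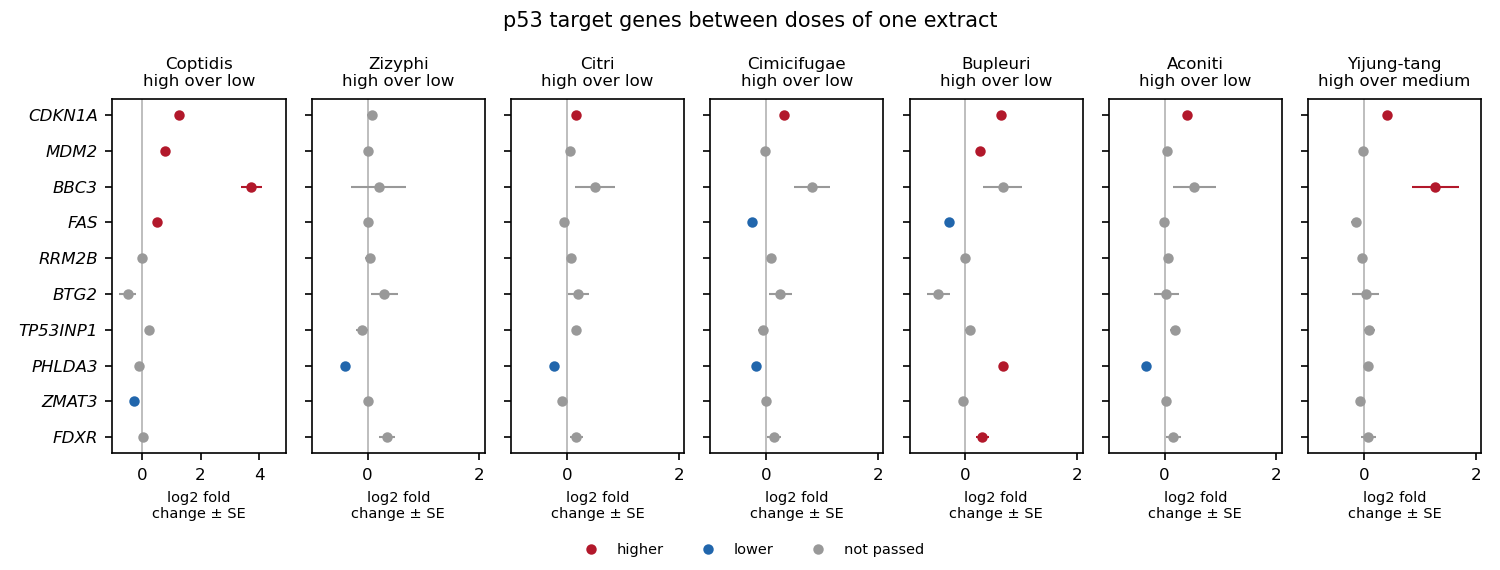
Log2 fold change with its SE for the 10 genes between the high and low dose of 6 extracts and between the high and medium dose of Yijung-tang, with red for higher, blue for lower and grey for not passed. The axis of Coptidis is wider than the others because BBC3 reached 3.73 there, and CDKN1A lies right of 0 in each panel.

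High doses within a set were also compared. CDKN1A was higher in high-dose Coptidis than in high-dose Zizyphi (log2 1.07 ± 0.07 SE), higher in high-dose Bupleuri than in high-dose Aconiti (0.28 ± 0.06) and lower in high-dose Citri than in high-dose Cimicifugae (-0.37 ± 0.06, adjusted p 8.7e-06). With the left-out Aconiti library kept, the difference between Bupleuri and Aconiti was log2 -0.01. Between Citri and Cimicifugae CDKN1A was the 1 gene of the 10 that passed, where 6.67% of all genes did. Between Coptidis and Zizyphi 8 passed (6 higher, 2 lower) against 65.5% of all genes, and between Bupleuri and Aconiti 3 against 32.0% (CDKN1A and PHLDA3 higher, FAS lower). Of the Coptidis and Zizyphi calls, that of BTG2 (log2 -0.76) was lost without Coptidis replicate 3 or Zizyphi replicate 3 (log2 -0.62 and -0.65), that of TP53INP1 (log2 0.29) without Coptidis replicate 2 or either Zizyphi library (log2 0.11 to 0.31), and that of PHLDA3 (log2 0.27) without Zizyphi replicate 3 (log2 0.16), where 5 calls were left. The FAS difference between Bupleuri and Aconiti (log2 -0.24 ± 0.07, adjusted p 0.00761) was lost without high-dose Aconiti replicate 3 (log2 -0.19, adjusted p 0.131) and was log2 0.16 with the left-out library kept. The dose effects of Coptidis and Zizyphi, as a test of their difference, were unequal for 6 of the 10 genes (55.3% of all genes) and those of Bupleuri and Aconiti for 4 (23.4%), or 2 without high-dose Bupleuri replicate 1, high-dose Aconiti replicate 3 or low-dose Aconiti replicate 1 or 3. Those of Citri and Cimicifugae were called unequal for 0 of the 10 by edgeR, where 1.07% of all genes passed, 1 gene had an unadjusted p under 0.05, and DESeq2 called 0 of the 8 with an adjusted p.

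BTG2, an antiproliferative cofactor of the mRNA deadenylase complex, was weakly expressed and passed in none of the 7 comparisons of a high dose with the vehicle. It measured 1.55, 1.85 and 1.64 CPM in high-dose Citri and 0.981 and 0.779 CPM in high-dose Coptidis, against 1.27, 1.29 and 0.933 CPM in the vehicle. The Citri libraries lay above the vehicle libraries and the Coptidis libraries overlapped them. The Citri difference was log2 0.51 ± 0.21 SE (adjusted p 0.06). With edgeR 1 of the 7 comparisons had an unadjusted p under 0.05, and DESeq2 called 0 of 7.

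MDM2, the ubiquitin ligase that limits p53, rose at no dose but the high dose of Coptidis. It measured 77.3 and 73.1 CPM there, against 47.3, 47.6 and 48.5 CPM in the vehicle (log2 0.65 ± 0.05 SE, 1.57-fold, adjusted p 4.41e-17). High-dose Bupleuri held 50.5, 47.1 and 48.6 CPM, overlapping the vehicle. High-dose Cimicifugae held 42.6, 42.5 and 43.95 CPM, all below the vehicle (log2 -0.15 ± 0.04 SE, adjusted p 0.00412), a call lost with no filter on low counts (adjusted p 0.0728). MDM2 was thus lower than the vehicle in an extract in which CDKN1A rose by log2 0.81, a comparison in which set and treatment cannot be told apart. Over the low, medium and high dose of Cimicifugae its means were 43.8, 43.1 and 43.04 CPM. Between the low and high dose MDM2 did not pass, while CDKN1A rose by log2 0.32. Against the vehicle MDM2 was lower in 4 of 7 medium and 4 of 6 low doses. Of these calls, medium-dose Zizyphi was lost without its replicate 3 (log2 -0.10), medium-dose Bupleuri without its replicate 2 (log2 -0.12), low-dose Coptidis without any 1 of 5 libraries (log2 -0.14 to -0.17) and low-dose Cimicifugae without any vehicle library or its replicate 2 or 3 (log2 -0.11 to -0.13). Between doses MDM2 was higher at the high than at the low dose of Coptidis (log2 0.80 ± 0.05) and of Bupleuri (log2 0.27 ± 0.04, adjusted p 4.51e-07), the low-dose Bupleuri libraries being the lowest group at 39.9, 41.4 and 39.95 CPM. MDM2 shares exonic positions with the carboxypeptidase M gene on the opposite strand and with a pseudogene on its own strand, and since strand use in the counting is not given, its counts are uncertain to that extent.

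BBC3 encodes PUMA, a BH3-only protein that triggers mitochondrial apoptosis, and it had the largest fold change of the 10 in Coptidis. It measured 4.802 and 3.51 CPM in high-dose Coptidis, against 0.461, 0.286 and 0.435 CPM in the vehicle. The libraries did not overlap, and the fold was 10.6 (log2 3.41 ± 0.32 SE, adjusted p 9.03e-13). BBC3 was also higher at the medium dose of Coptidis, with 1.06 and 1.32 CPM (log2 1.604 ± 0.37 SE, adjusted p 0.00101), where CDKN1A was at log2 -0.02 ± 0.07. High-dose Cimicifugae held 1.05, 0.936 and 0.646 CPM (log2 1.17 ± 0.36, adjusted p 0.00977) and high-dose Yijung-tang 0.832 and 0.778 CPM (log2 1.04 ± 0.39, adjusted p 0.0383), all above the vehicle libraries. BBC3 had a median of 11.5 counts over the libraries of the fit. The Cimicifugae call was lost without vehicle replicate 2 (log2 0.97, adjusted p 0.0691) or high-dose replicate 1 (log2 1.01, adjusted p 0.0521), and the Yijung-tang call without vehicle replicate 2 or 3 or either high-dose library (log2 0.84 to 1.13, adjusted p 0.0508 to 0.16). In Citri, Bupleuri and Aconiti the fold changes were log2 0.51 ± 0.38, 0.71 ± 0.38 and 0.60 ± 0.41 and did not pass, and Zizyphi had 0.02 ± 0.46. Between doses BBC3 was higher in Coptidis (log2 3.73 ± 0.36) and in Yijung-tang (log2 1.28 ± 0.42, adjusted p 0.0456), where the call was lost without any 1 of the 4 libraries (log2 0.89 to 1.72, adjusted p 0.0579 to 0.383). In Banhasasim-tang BBC3 had 0.474, 1.08 and 2.504 CPM at the low, medium and high dose in single libraries.

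FAS encodes a death receptor of the cell surface. It measured 30.9 and 26.99 CPM in high-dose Coptidis, against 21.9, 21.8 and 19.97 CPM in the vehicle (log2 0.45 ± 0.07 SE, adjusted p 5.83e-07). At the medium dose of Coptidis it held 15.4 and 17.1 CPM, below every vehicle library (log2 -0.39 ± 0.08, adjusted p 0.000112), so that it was lower at one dose and higher at the next. FAS fell in high-dose Bupleuri, with 15.9, 16.4 and 17.9 CPM (log2 -0.35 ± 0.07, adjusted p 3.95e-05). It also fell in high-dose Cimicifugae, with 17.4, 18.04 and 18.5 CPM (log2 -0.24 ± 0.07, adjusted p 0.00435), and in high-dose Yijung-tang, with 18.2 and 17.7 CPM (log2 -0.25 ± 0.07, adjusted p 0.00858). None of these 8 libraries overlapped the vehicle. The Yijung-tang call was lost without its replicate 2 (log2 -0.22, adjusted p 0.0993). Between doses FAS fell in Bupleuri (log2 -0.29 ± 0.06) and Cimicifugae (log2 -0.25 ± 0.06), both extracts in which CDKN1A rose between the same doses, and rose in Coptidis (log2 0.51 ± 0.08). FAS was also lower at the medium dose of Bupleuri (log2 -0.19 ± 0.07, adjusted p 0.0365), a call lost without any 1 of the 6 libraries but vehicle replicate 3 (log2 -0.16 to -0.20). FAS shares exonic positions with ACTA2 on the opposite strand, a gene with 116572 counts over all libraries, and its counts are uncertain to the extent that reads were shared.

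TP53INP1 encodes a stress-induced protein that favours p53 activity and cell death. It measured 6.85, 6.85 and 5.995 CPM in high-dose Cimicifugae and 6.78 and 6.77 CPM in high-dose Aconiti, against 5.01, 6.14 and 4.91 CPM in the vehicle. The Cimicifugae libraries overlapped the vehicle and the Aconiti libraries lay above it. The log2 fold changes were 0.28 ± 0.09 SE in Cimicifugae (adjusted p 0.0345) and 0.33 ± 0.09 in Aconiti (adjusted p 0.0178). TP53INP1 was also higher at the medium and low doses of Cimicifugae (log2 0.40 ± 0.08 and 0.34 ± 0.08), with no step up between low and high (log2 -0.06 ± 0.08). The high-dose Cimicifugae call was lost without 4 of the 6 libraries (vehicle replicates 1 and 3, high-dose replicates 1 and 2, log2 0.24 to 0.26). The Aconiti call was lost without 4 of the 5 (vehicle replicates 1 and 3 and both high-dose libraries, log2 0.28 to 0.33), and the low-dose Cimicifugae call without vehicle replicate 1 or 3 (log2 0.30 and 0.29). In high-dose Coptidis TP53INP1 held 7.07 and 5.68 CPM and did not pass (log2 0.24 ± 0.10, adjusted p 0.0806), though it did without vehicle replicate 2 or Coptidis replicate 3 (log2 0.35 and 0.38).

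PHLDA3, a pleckstrin-homology protein that keeps the kinase AKT from the membrane, differed in direction between extracts in all of which CDKN1A rose. It measured 82.8, 84.96 and 90.3 CPM in high-dose Bupleuri, against 48.5, 52.3 and 51.8 CPM in the vehicle (log2 0.76 ± 0.05 SE, 1.69-fold, adjusted p 4.98e-16). The lowest group was high-dose Zizyphi with 37.5 and 32.9 CPM (log2 -0.53 ± 0.06, adjusted p 5.45e-08). PHLDA3 also fell in high-dose Coptidis (log2 -0.26 ± 0.06), Citri (-0.31 ± 0.06), Cimicifugae (-0.32 ± 0.06) and Aconiti (-0.24 ± 0.06) and rose in Yijung-tang (0.19 ± 0.06, adjusted p 0.0144). The Yijung-tang call was lost without vehicle replicate 1 or either high-dose library (log2 0.16 to 0.20). The Aconiti call was lost without high-dose replicate 3 (log2 -0.21, adjusted p 0.0632), and with the left-out library kept the value was log2 0.11. Between doses PHLDA3 rose in Bupleuri (log2 0.68 ± 0.05) and fell in Zizyphi (-0.41 ± 0.07), Aconiti (-0.33 ± 0.06, or 0.01 with the left-out library kept), Citri (-0.23 ± 0.05) and Cimicifugae (-0.17 ± 0.06). The Cimicifugae call was lost without any 1 of its 6 libraries (log2 -0.16 to -0.19, adjusted p 0.058 to 0.135). At the medium dose PHLDA3 was lower in Zizyphi (-0.19 ± 0.06), Citri (-0.17 ± 0.06) and Cimicifugae (-0.18 ± 0.06), each call being lost without vehicle replicate 2 or 3 or some of its own libraries (log2 -0.16 to -0.21 in Zizyphi, -0.14 to -0.15 in Citri and -0.13 to -0.16 in Cimicifugae). High-dose Bupleuri also had a low sum of epithelial markers, as given above, and their part in this result was not tested.

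**Figure D4:**
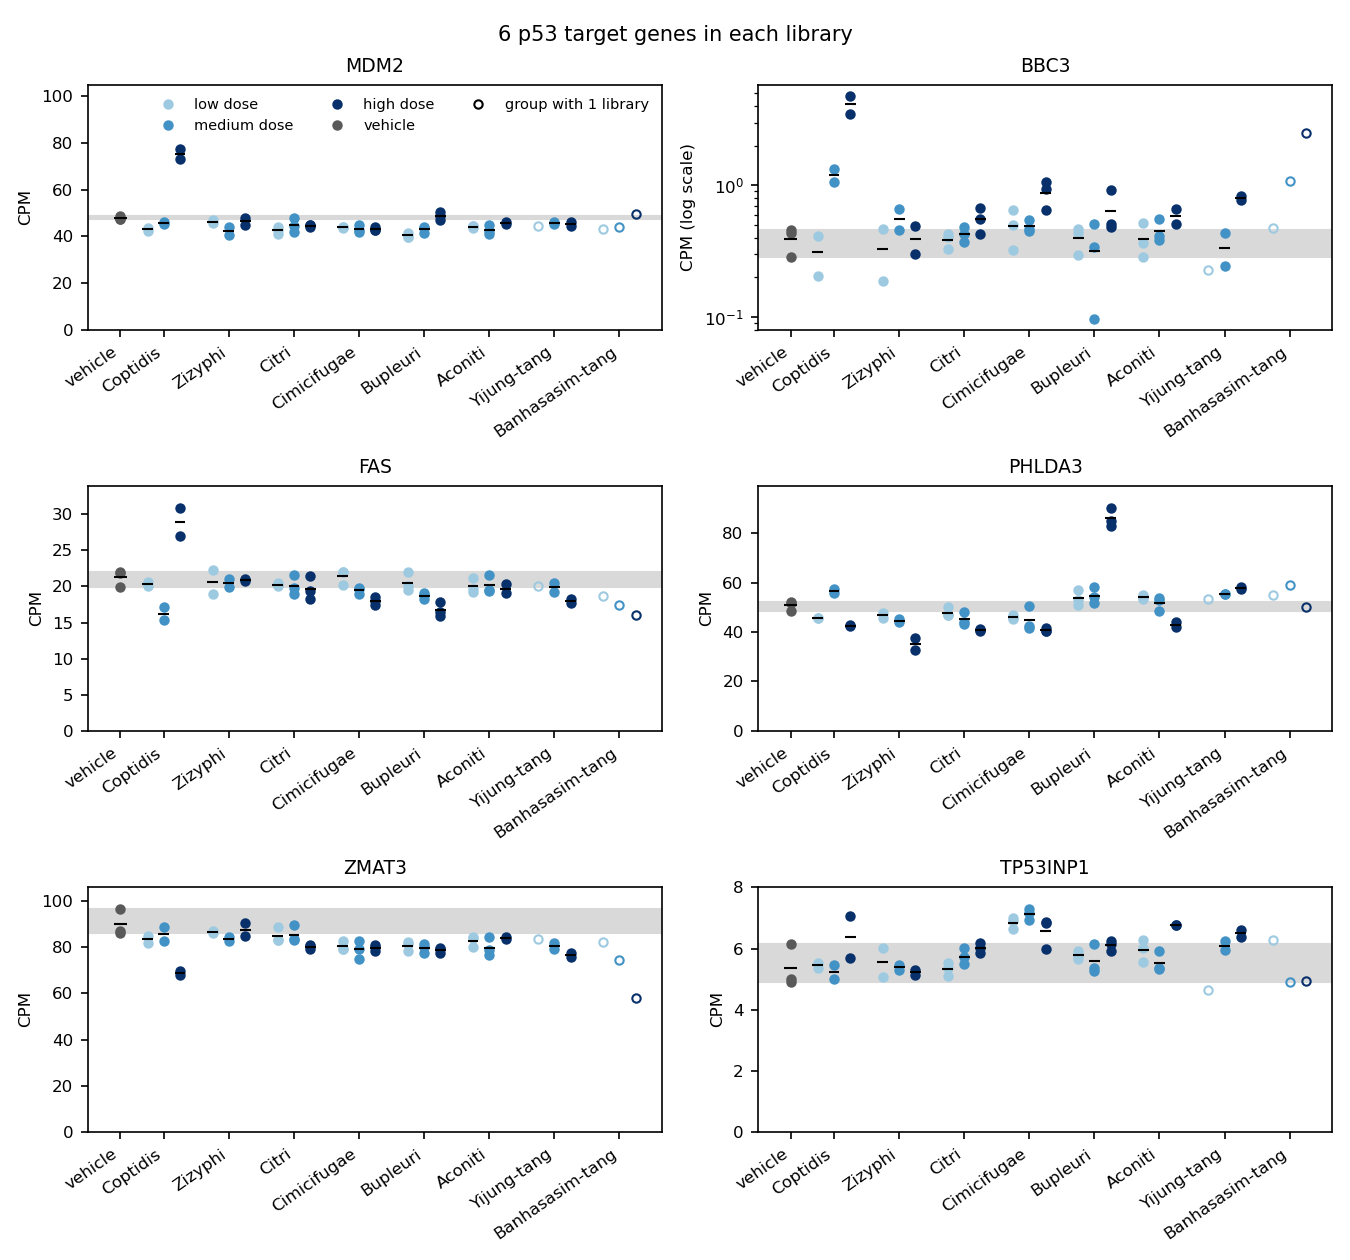
MDM2, BBC3, FAS, PHLDA3, ZMAT3 and TP53INP1 in CPM in each library, drawn as for CDKN1A, with a log axis for BBC3. MDM2, BBC3 and FAS peak in high-dose Coptidis at 75.2, 4.15 and 28.9 CPM, PHLDA3 peaks in high-dose Bupleuri at 86.01 CPM, and among groups with replicates ZMAT3 is lowest in high-dose Coptidis at 68.9 CPM.

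RRM2B encodes the p53-inducible subunit of ribonucleotide reductase, which supplies nucleotides for DNA repair. It measured 38.03, 40.2 and 39.7 CPM in high-dose Bupleuri, against 49.99, 51.6 and 45.7 CPM in the vehicle, the group with the highest mean of the 21 (log2 -0.32 ± 0.06 SE, adjusted p 4.5e-05). Low-dose Bupleuri already held 39.9, 40.9 and 38.2 CPM, and the difference between high and low dose was log2 -0.01 ± 0.06. RRM2B was also lower in high-dose Aconiti (log2 -0.19 ± 0.07, adjusted p 0.0385), a call lost without vehicle replicate 1 or 2 or high-dose replicate 2 (log2 -0.11 to -0.17), and it rose in no comparison with the vehicle. It was lower too at the medium dose of Bupleuri (log2 -0.24 ± 0.06) and Aconiti (-0.29 ± 0.06) and at the low dose of Bupleuri (-0.31 ± 0.06), Aconiti (-0.25 ± 0.06) and Citri (-0.18 ± 0.06), the Citri call being lost without vehicle replicate 1 or 2 or low-dose replicate 2 or 3 (log2 -0.14 to -0.17). FDXR, the mitochondrial reductase that feeds electrons to ferredoxin, measured 7.36 and 7.93 CPM in high-dose Yijung-tang, against 6.16, 5.71 and 5.22 CPM in the vehicle (log2 0.42 ± 0.14 SE, adjusted p 0.0139). The libraries did not overlap, and the call was lost without vehicle replicate 3 (log2 0.38, adjusted p 0.0512) or high-dose replicate 2 (log2 0.37, adjusted p 0.127). In the other 6 extracts FDXR had log2 fold changes of 0.09 (Coptidis) to 0.29 (Cimicifugae), none of which passed. Between doses FDXR was higher in Bupleuri (log2 0.31 ± 0.12, adjusted p 0.0377), a call lost without replicate 1 or 2 of either dose (log2 0.26 to 0.27).

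ZMAT3, a zinc-finger protein that binds RNA, fell in 5 of the 7 high doses. It measured 69.7 and 68.2 CPM in high-dose Coptidis, against 86.2, 96.7 and 86.9 CPM in the vehicle, again the group with the highest mean (log2 -0.39 ± 0.05 SE, adjusted p 2.46e-09). It also fell in high-dose Yijung-tang (log2 -0.23 ± 0.05), Bupleuri (-0.19 ± 0.04), Cimicifugae (-0.17 ± 0.04) and Citri (-0.17 ± 0.04). The highest ZMAT3 value was vehicle replicate 2, without which the Citri and Cimicifugae calls were lost (log2 -0.10 and -0.11). At the lower doses ZMAT3 was lower in 4 of 7 medium and 3 of 6 low doses, and all of these calls but that of medium-dose Cimicifugae (log2 -0.19 ± 0.04) were lost without the same vehicle library (log2 -0.05 in low-dose Aconiti to -0.12 in medium-dose Bupleuri). Between doses ZMAT3 fell in Coptidis (log2 -0.28 ± 0.05, adjusted p 1.1e-05) and passed in no other extract. The single high-dose Banhasasim-tang library held 58.04 CPM.

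Levels of different genes were compared per kilobase of exon in the vehicle, with all annotated exons of a gene merged. Where the transcripts present are shorter than the merged length, the level is understated. That length was greatest for MDM2 (13.28 kb), so its place in the order is uncertain. PHLDA3 was highest with 16.2 ± 0.66 CPM per kilobase (SD, n = 3), followed by ZMAT3 with 9.32 ± 0.609, RRM2B with 8.84 ± 0.552 and CDKN1A with 6.86 ± 0.867, the ZMAT3 and RRM2B levels lying within their spread of each other. FAS, MDM2, FDXR and TP53INP1 had 4.99, 3.6, 1.58 and 0.944 CPM per kilobase, and BTG2 and BBC3 closed the order with 0.421 and 0.124. Over the 21 group means in CPM, the ratio of the highest to the lowest was widest for BBC3 (13.4), CDKN1A (2.51) and PHLDA3 (2.44) and narrowest for RRM2B (1.25).

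Across the 21 group means in log2 CPM, the likeness of each gene to CDKN1A was described by Pearson's r. The groups share the cell line, the vehicle and the sets and are no independent samples. TP53INP1 had r 0.703, BBC3 0.677, MDM2 0.615, FDXR 0.472, FAS 0.283, PHLDA3 0.0315, RRM2B -0.166, BTG2 -0.253 and ZMAT3 -0.811. Among the 17679 other genes TP53INP1 ranked 620, BBC3 869 and MDM2 1587 by this measure, and the median r of all genes was -0.011. Without high-dose Coptidis the values of MDM2, BBC3 and FAS were 0.0849, 0.359 and -0.395, while TP53INP1 had 0.78 and FDXR 0.682. The ranks were then 7565 for MDM2, 3240 for BBC3, 14899 for FAS, 103 for TP53INP1 and 367 for FDXR. By Spearman's rank correlation over the 21 groups TP53INP1 ranked 40, FDXR 426, BBC3 874, MDM2 7016, FAS 13780 and ZMAT3 17583. The 10 genes most like CDKN1A began with TPRA1 (r 0.908), PANX2 (r 0.906), ARAP1 (r 0.904), ZSWIM8 (r 0.900) and SLC12A7 (r 0.900). TRPV1 (r 0.892), GIGYF1 (r 0.891), FRAT2 (r 0.891), CORO7 (r 0.889) and CARD19 (r 0.888) completed them. None of these is on the further lists of p53 targets used here. Those lists held only 33 and 14 of the 17680 tested genes, so this is likely for any 10 genes and decides nothing.

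Genes that act on p53 or belong to its family were also examined at the high dose. MDM4, the MDM2 partner that masks p53, rose in Coptidis (log2 0.96 ± 0.07), as did USP7, a deubiquitinase of MDM2 and p53 (log2 0.48 ± 0.04). The kinases ATR, CHEK1 and CHEK2 fell there (log2 -0.40 ± 0.09, -0.37 ± 0.06 and -0.35 ± 0.09), as did the phosphatase PPM1D (log2 -0.37 ± 0.09) and the p53 relative TP63 (log2 -2.56 ± 0.25). ATM, TP53BP1 and HIPK2 did not pass there (log2 -0.08, -0.12 and -0.05). In Bupleuri CHEK1, PPM1D, TP63, MDM4 and ATM fell (log2 -0.23 ± 0.05, -0.29 ± 0.08, -0.66 ± 0.16, -0.16 ± 0.06 and -0.15 ± 0.06). The MDM4 call was lost without vehicle replicate 1 or 2 or high-dose replicate 1 or 2 (log2 -0.08 to -0.16) and the ATM call without vehicle replicate 1 or 2 or high-dose replicate 2 or 3 (log2 -0.12 to -0.15). CHEK2 rose in Zizyphi (log2 0.52 ± 0.08), Citri (0.55 ± 0.07) and Cimicifugae (0.44 ± 0.07). Over the 7 high doses MDM4 and USP7 each rose in 1 and fell in 4, and ATR fell in 4 and rose in 0. In these comparisons 21.6% (Zizyphi) to 66.6% (Coptidis) of all genes passed. When both left-out libraries were kept, the falls of ATR and CHEK1 in Coptidis and the 5 falls named in Bupleuri did not pass.

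A wider list of p53 targets moved in both directions. Of 33 tested genes, 12 rose and 13 fell in high-dose Coptidis (median log2 fold change -0.06, against -0.02 for all genes), where 66.6% of all genes passed. Cimicifugae had 8 higher and 9 lower (35.7% of all genes), Bupleuri 8 higher and 10 lower (39.6%), Aconiti 7 higher and 9 lower (27.6%), Yijung-tang 9 higher and 7 lower (30.8%), Citri 9 higher and 9 lower (31.5%) and Zizyphi 6 higher and 6 lower (21.6%). At the medium dose of Coptidis, where CDKN1A was at log2 -0.02 ± 0.07, 3 rose and 7 fell (25.9% of all genes). In high-dose Coptidis the largest rise was that of EDA2R, a receptor of the TNF family (log2 2.26 ± 0.36). EDA2R averaged 2.26 ± 0.271 CPM there and 0.487 ± 0.299 CPM in the vehicle. PERP, a desmosomal membrane protein (0.57 ± 0.05), and AEN, an apoptotic nuclease (0.57 ± 0.06), followed. Among the largest falls were those of CMBL (log2 -1.84 ± 0.10) and TNFRSF10C (-1.75 ± 0.40). Without high-dose Aconiti replicate 2 the Aconiti counts were 4 higher and 4 lower, and without replicate 3 the lower ones were 5. The Yijung-tang counts were 5 higher and 4 lower without vehicle replicate 1 or high-dose replicate 1, with 3 lower without vehicle replicate 3. Citri had 5 lower without vehicle replicate 1 or high-dose replicate 1, and Zizyphi 3 higher without high-dose replicate 2. In a fit that kept both left-out libraries, 7 fell in Coptidis, and 1 to 4 genes rose and 1 to 4 fell in each of the other extracts but Aconiti.

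Some genes of that list moved the same way in nearly all extracts. PIDD1, a death-domain scaffold, rose in 7 of 7 high doses (log2 0.43 in Bupleuri to 0.92 in Aconiti), averaging 19.7 ± 0.587 CPM in high-dose Aconiti (SD, n = 2) and 10.4 ± 0.621 CPM in the vehicle (n = 3). NINJ1, whose protein ruptures the membrane of dying cells, rose in 6 of 7 (log2 0.28 in Citri to 0.60 in Yijung-tang) and had log2 0.13 ± 0.08 in Zizyphi. DDB2, which recognises ultraviolet damage, rose in 6 of 7 and had log2 -0.04 ± 0.08 in Bupleuri. The decoy receptor TNFRSF10D fell in 7 of 7 (log2 -0.27 in Aconiti to -0.78 in Yijung-tang). All these comparisons share the 3 vehicle libraries. How many of all genes moved the same way in 6 or 7 of the 7 was not counted. Also on the list, and named after their values were seen, are XPC and SUSD6, each of which rose in 6 of 7, ORAI3, which rose in 6 and fell in Coptidis, and ASCC3, which fell in 6 of 7. XPC rose by log2 0.18 in Yijung-tang to 0.36 in Coptidis, SUSD6 by 0.15 in Yijung-tang to 0.22 in Coptidis and ORAI3 by 0.41 in Zizyphi to 0.93 in Bupleuri, and ASCC3 changed by -0.14 in Citri to -0.39 in Coptidis. XPC and SUSD6 did not pass in Bupleuri (log2 0.03 and -0.02), nor ASCC3 in Zizyphi (0.00). Without 1 library, calls were lost for XPC in Aconiti (high-dose replicate 2) and Yijung-tang (vehicle replicate 1 or high-dose replicate 1), with log2 0.15 to 0.17, and for SUSD6 in Zizyphi (vehicle replicate 1 or high-dose replicate 2), Aconiti (high-dose replicate 2) and Yijung-tang (vehicle replicate 1 or either high-dose library), with log2 0.13 to 0.17. For ASCC3 they were lost in Citri (vehicle replicate 1 or 2, high-dose replicate 1 or 2) and Bupleuri (vehicle replicate 1, high-dose replicate 2), with log2 -0.11 to -0.14, and for ORAI3 in Zizyphi (high-dose replicate 2, log2 0.30) and Coptidis (vehicle replicate 3 or high-dose replicate 2, log2 -0.19 to -0.20). The DDB2 call was lost without high-dose Coptidis replicate 2 in Coptidis (log2 0.24), without high-dose Aconiti replicate 2 in Aconiti (log2 0.27) and without vehicle replicate 2 or high-dose replicate 1 in Yijung-tang (log2 0.21 and 0.08). With both left-out libraries kept, the calls of DDB2 in Zizyphi and Yijung-tang, of NINJ1 in Bupleuri and Citri, of XPC in 4 extracts, SUSD6 in all 6, ASCC3 in 5 and ORAI3 in Coptidis and Zizyphi were lost as well.

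The targets that p53 shares with other stress pathways rose in Coptidis for the most part. Of 14 tested, 11 rose and 3 fell in high-dose Coptidis, with a median log2 fold change of 1.04, where 66.6% of all genes passed. At the medium dose of Coptidis 11 rose and 3 fell as well (median 0.40, 25.9% of all genes), and there CDKN1A did not pass. In high-dose Coptidis GDF15, a secreted stress cytokine, averaged 510.2 ± 1.91 CPM (SD, n = 2), against 4.54 ± 0.537 CPM in the vehicle (n = 3). Its log2 fold change was 6.82 ± 0.07. The transcription factor ATF3 and the stress sensor SESN2 followed with 4.89 ± 0.15 and 3.04 ± 0.06. SERTAD1, IER5 and KITLG fell in high-dose Coptidis (log2 -1.51, -1.24 and -0.32). In Bupleuri 6 rose and 6 fell (39.6% of all genes), the largest rises being those of GDF15 with 74.1 ± 0.797 CPM (n = 3, log2 4.03 ± 0.07), the cytokine LIF (1.68 ± 0.07) and SESN2 (0.90 ± 0.06). In Zizyphi none rose, 4 fell (21.6% of all genes), and GDF15 fell to 2.02 ± 0.224 CPM (n = 2, log2 -1.16 ± 0.15). Aconiti had 8 higher and 3 lower (27.6%), Yijung-tang 4 higher and 5 lower (30.8%), Cimicifugae 3 higher and 6 lower (35.7%) and Citri 1 higher and 5 lower (31.5%), where 2 rose without high-dose replicate 1. When both left-out libraries were kept, the fall of KITLG in Coptidis was lost, and the lower genes numbered 2 in Bupleuri and Yijung-tang and 1 in Citri and Zizyphi.

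The ATF4 list holds 16 genes of the integrated stress response, in which the factor ATF4 raises genes of amino acid supply and stress control. All 16 rose in high-dose Coptidis (median log2 1.83, 66.6% of all genes passed), led by DDIT3 (4.68 ± 0.07), TRIB3 (4.53 ± 0.06) and PPP1R15A (3.73 ± 0.05). All 16 also rose at the medium dose of Coptidis (median 0.96, 25.9% of all genes), where CDKN1A was at log2 -0.02 ± 0.07 and did not pass, so the list and CDKN1A did not move together there. In Bupleuri 13 rose and 2 fell (median 0.48, 39.6% of all genes), led by PPP1R15A (1.67 ± 0.04), CEBPB (1.298 ± 0.17) and DDIT3 (1.11 ± 0.07). Yijung-tang had 13 higher (median 0.78, 30.8% of all genes), Cimicifugae 12 higher and 1 lower (0.23, 35.7%), and Aconiti 11 higher (0.26, 27.6%). In Citri 3 rose and 3 fell (31.5% of all genes), and in Zizyphi 5 fell and none rose (21.6%). The Citri counts were 5 higher and 1 lower without high-dose replicate 1 and 1 lower without vehicle replicate 1, the Zizyphi count was 3 lower without vehicle replicate 2 or either high-dose library, and the lower gene in Cimicifugae was lost without vehicle replicate 1 or 2 or high-dose replicate 2. In a fit that kept both left-out libraries, 3 rose in Cimicifugae, 1 rose and 1 fell in Citri, none fell in Zizyphi or Bupleuri and 2 fell in Aconiti. The comparisons share the vehicle, and no test was made of a link between the list and CDKN1A.

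**Figure D5:**
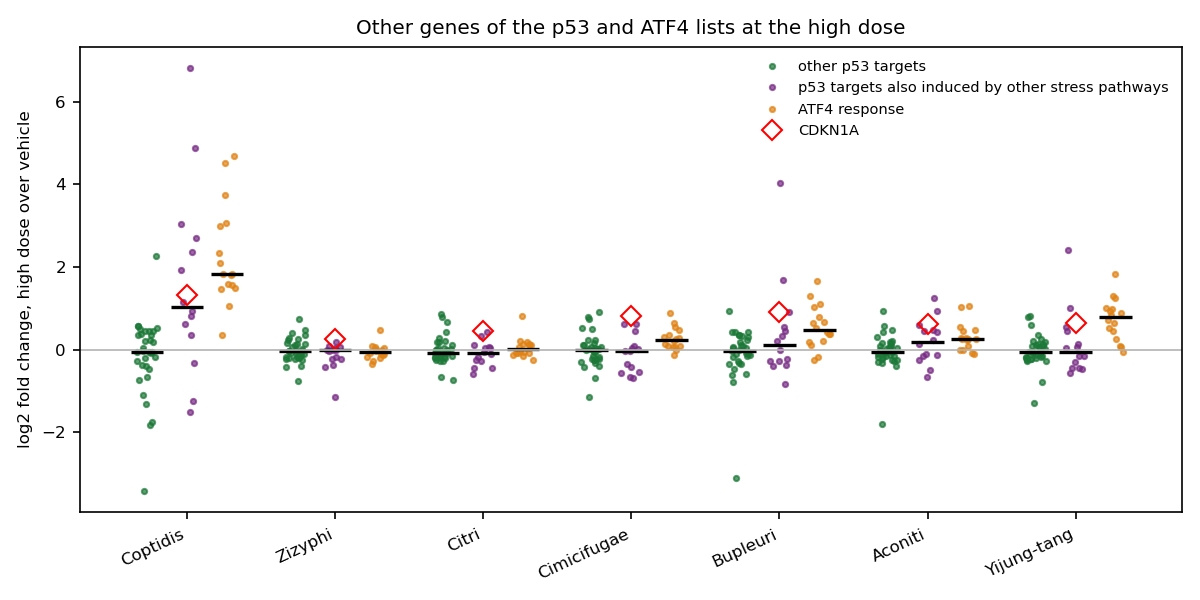
Log2 fold change of single genes at the high dose over the vehicle in 7 extracts for 3 lists (other p53 targets in green, p53 targets shared with other stress pathways in purple, ATF4 response in orange), with black lines at list medians and a red diamond for CDKN1A. The green medians lie between -0.07 and 0 in each extract, while the orange median reaches 1.83 in Coptidis and 0.78 in Yijung-tang.

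Of 18 cell cycle genes that act with p21 and RB, 16 fell and 1 rose in high-dose Coptidis (median log2 -1.41, 66.6% of all genes passed), the largest falls being those of CCNE2 (-2.84 ± 0.12), MKI67 (-2.69 ± 0.13) and CCNA2 (-2.40 ± 0.06). At the medium dose of Coptidis, where CDKN1A did not pass, 16 fell and 1 rose too, by less (median -0.35, 25.9% of all genes). In Bupleuri 14 fell and 2 rose (median -0.60, 39.6% of all genes), and in Yijung-tang 12 fell and none rose (median -0.30, 30.8%). Cimicifugae, where CDKN1A rose by log2 0.81, had 1 higher and 7 lower (median -0.06, 35.7% of all genes), Aconiti 2 higher and 5 lower (27.6%), Citri 6 higher and 3 lower (31.5%) and Zizyphi 6 higher and 4 lower (21.6%). CCNB1, the cyclin of mitotic entry, fell in 7 of 7 high doses (log2 -0.18 in Citri to -1.66 in Coptidis), or in 5 with both left-out libraries kept. In that fit 2 of the 18 genes fell in Yijung-tang and Cimicifugae, and none rose and 1 fell in Citri and Zizyphi. Cimicifugae had 4 lower without vehicle replicate 1 or high-dose replicate 1, Aconiti 3 lower without either high-dose library and 1 higher without vehicle replicate 2 or high-dose replicate 3, and Zizyphi 3 higher without high-dose replicate 2. Of the 6 other CDK inhibitor genes 5 rose in Coptidis, led by CDKN1C (log2 1.40 ± 0.26), CDKN2B (1.07 ± 0.06) and CDKN2D (0.96 ± 0.11), while CDKN2C fell to 10.3 ± 0.964 CPM, against 102 ± 0.891 CPM in the vehicle (log2 -3.30 ± 0.09). In Coptidis 66.6% of all genes passed. In Bupleuri 3 of the 6 fell and none rose (39.6% of all genes passed), where CDKN1A rose by log2 0.90. In the other extracts none fell, and from 0 (Zizyphi) to 3 (Citri) rose, where 21.6% to 35.7% of all genes passed. Of 8 other regulators of CDKN1A, 4 rose and 2 fell in Coptidis, near the share of all genes (66.6%). In Bupleuri 6 rose and 1 fell (39.6% of all genes), and none fell without vehicle replicate 1 or high-dose replicate 3. In each of the other extracts 1 to 3 rose and 1 or 2 fell (21.6% to 35.7% of all genes). KLF4, a zinc-finger factor, rose in Coptidis (log2 2.80 ± 0.09) and Bupleuri (0.47 ± 0.09) and fell in Zizyphi (-0.61 ± 0.12). The immediate early gene EGR1 fell in Coptidis (log2 -2.04 ± 0.20) and rose in the other 6 extracts (0.82 in Bupleuri to 1.37 in Zizyphi).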

How the data were processed

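RNA-seq libraries (MGIEasy RNA Directional kit, paired 100-base reads, per the labels' protocols) of SW1783 cells were analysed from the authors' deposited RSEM expected counts for 60675 genes in 60 libraries. Per the submitters' processing notes, FastQC 0.11.9, Trim Galore 0.6.5, STAR 2.7.3a, RSEM 1.3.3 and hg38 were used, and the sources used here do not give the strand setting. Libraries held 11329310 to 30990264 counts, and the deeper they are the smaller the counting error, which matters most for BBC3 and BTG2.

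Expected counts were rounded (9.18% of the deposited values were not whole). The fit used edgeR 4.0.16 in R 4.3.3 (limma 3.58.1) with TMM scaling, a minimum count of 10 (filterByExpr), quasi-likelihood tests over 17680 genes and Benjamini-Hochberg adjustment within each of 33 comparisons, over 54 libraries in 21 groups. Excluded were 2 libraries that stand apart and 4 that are alone in their group. The SE of a log2 fold change was taken from it and its F statistic. CPM values are counts over the summed counts of the tested genes, scaled by TMM. No 2 libraries were identical. The steps were tested on simulated data. DESeq2 1.42.0, no filter, other scaling, own groups alone, both libraries kept, a replicate block and leaving out each library were alternatives. Genes named by rule are the 10 members, the tested p53 circuit genes, the 3 largest called rises and falls of each list in each high dose, and the 10 genes most like CDKN1A with a mean of at least 1 CPM. The results of 2 of these genes are not reported here. The members and lists were chosen with earlier results of these data known. Water extracts and positive controls were not analysed here.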

Additional observations from a re-analysis of the deposited data

Results flagged for a closer look

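In 2 pairs of extracts that share a set, the effect of the high over the low dose differed between the extracts by edgeR's quasi-likelihood test of the difference itself, with adjusted p-values over all genes. The dose effect of Coptidis exceeded that of Zizyphi by log2 1.193 for CDKN1A (adjusted p 1.12e-13), 0.7976 for MDM2 (2.34e-13), 3.527 for BBC3 (7.52e-06), 0.4993 for FAS (0.000129) and 0.3046 for PHLDA3 (0.00742), and lay below it for ZMAT3 by log2 -0.2881 (0.000751). The PHLDA3 difference was lost without high-dose Zizyphi replicate 3 (log2 0.20, adjusted p 0.11).

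The dose effect of Bupleuri exceeded that of Aconiti by log2 0.2364 for CDKN1A (adjusted p 0.0375), 0.2234 for MDM2 (0.00489) and 1.012 for PHLDA3 (7.49e-14), and lay below it for FAS by log2 -0.2771 (0.0295). The CDKN1A difference was lost without 8 of the libraries in turn (high-dose Bupleuri replicate 1, low-dose Bupleuri replicates 1 and 2, both high-dose Aconiti and all low-dose Aconiti libraries, log2 0.21 to 0.26, adjusted p 0.0517 to 0.128). The FAS difference was lost without 6 (high-dose Bupleuri replicates 1 and 2, low-dose Bupleuri replicate 3, high-dose Aconiti replicate 3 and low-dose Aconiti replicates 1 and 3, log2 -0.22 to -0.27, adjusted p 0.054 to 0.169). With both left-out libraries kept, the differences of CDKN1A, MDM2 and BBC3 between Coptidis and Zizyphi still passed and the other 7 did not.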

How the results depend on the processing

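Over the 330 member fold changes, DESeq2's size factors in edgeR kept direction and side of the threshold in 329, a fit with the replicate number as a block in 326, no filter in 306 (24 calls lost), and own groups alone in 296 of 317 (14 lost, 7 gained). DESeq2's own test did so in 286 of the 295 with an adjusted p (9 lost). The replicate numbers were not used as pairs in the main fit. In 0 of 30 comparisons did every pair correlate above 0.1, a check that cannot exclude pairing. Where both groups hold 2 libraries both pairs give the same r by construction, and the vehicle carries no set number. In edgeR the block moved MDM2 in high-dose Citri to log2 -0.1027 (adjusted p 0.0488) and RRM2B in high-dose Aconiti to -0.1762 (0.0548). It also moved PHLDA3 in medium Zizyphi to -0.1806 (0.0547) and MDM2 in low Coptidis to -0.1421 (0.0507). With both libraries that stand apart kept, 86 of the 112 member calls were lost. The members called then numbered 3 in Coptidis, 0 in Zizyphi, 1 in Citri, 1 in Cimicifugae, 2 in Bupleuri and 1 in Yijung-tang against the vehicle, and between doses 3 in Coptidis, 2 in Bupleuri, 1 in Aconiti and 0 in Zizyphi, Citri, Cimicifugae and Yijung-tang. CDKN1A was at log2 0.2526 in high-dose Zizyphi and, between doses, at 0.1638 in Citri, 0.3232 in Cimicifugae and 0.4148 in Yijung-tang, none of which passed. The same setting turned the sign of PHLDA3 in high-dose Aconiti (0.1077) and between its doses (0.007458), PERP (-0.002632) and CDC20 (0.1609) in high-dose Aconiti, CDKN1A (-0.00606) and FAS (0.1633) between high-dose Bupleuri and Aconiti, and CDKN1A (-0.04518) and FAS (0.1292) in the difference of their dose effects. The groups of the fit share an estimate of the spread, so the kept libraries also enter the p-values of comparisons that do not contain them. For high-dose Zizyphi against the vehicle, which contains neither, it called 277 genes in place of 3819. With its own groups alone 3410 were called. A call lost in this setting while its log2 fold change kept its size therefore says little about that extract. How much of the loss came through the shared spread was not tested.

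Between the doses of Citri, CDKN1A did not pass with no filter (log2 0.1646), with DESeq2 (0.1669) or with its own groups alone (0.1677), each leaving 1 member called, as in Yijung-tang between doses under the same 3 settings. With no filter 2 members were called in high-dose Aconiti. Leaving out 1 library at a time gave CDKN1A log2 0.1756 to 0.3421 in high-dose Zizyphi and 0.06835 to 0.2227 between the doses of Citri, and members called of 1 to 2 in high-dose Zizyphi, 2 to 3 in high-dose Aconiti, 2 to 6 in high-dose Yijung-tang, 1 to 2 between the doses of Citri and 1 between those of Yijung-tang. DESeq2 gave no adjusted p for BBC3 in 3 of 7 high-dose comparisons. Groups of 2 libraries, few BBC3 and BTG2 reads, and a vehicle outside the sets limit the precision.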

Other observations

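The library labelled high-dose Aconiti replicate 1, left out above, held 56.3 CPM of CDKN1A, 82.05 CPM of PHLDA3 and 3.804 CPM of RRM2B, against 31.8 and 32.8, 43.9 and 42.1 and 40.99 and 45.3 CPM in the other high-dose Aconiti libraries. The library labelled low-dose Yijung-tang replicate 1 held 32.7 CPM of CDKN1A and 147 CPM of PHLDA3, against 25.1 and 53.4 CPM in the other low-dose Yijung-tang library.

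In the single Banhasasim-tang libraries, FAS had 18.7, 17.4 and 16.1 CPM and MDM2 42.98, 43.8 and 49.7 CPM at the low, medium and high dose, with no replicate and no test. CDKN1A and BBC3 stood at their highest Banhasasim-tang level at the high dose, as given above, where FAS stood at its lowest.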
